A study of Mus musculus with 12 samples.

Results

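Fc gamma receptors bind the constant part of IgG and let macrophages sense antibody-coated particles and immune complexes. The 5 genes described here are the activating receptors Fcgr1, Fcgr3 and Fcgr4, the inhibitory receptor Fcgr2b, and Fcer1g, which encodes the common gamma chain. They were chosen as every array probe whose RefSeq accession maps to one of these symbols. That gave 1 probe for each of the 5 genes, among 20887 genes named on the array and 13168 genes tested. All 5 probes were well above background on all 12 arrays and none was saturated, so every member passed the filter on dim probes.

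Expression was measured in wild-type peritoneal macrophages of C57BL/6 mice, with 3 groups of 4 one-colour arrays, after 20 hours. The control group received vehicle only and came from mice of 8 weeks. The LPS_IFNg group, from mice of 9 weeks, received lipopolysaccharide (LPS) at 100 ng/ml and interferon gamma at 20 ng/ml, which together induce classical activation. The LPS_IFNg_emodin group, also from mice of 9 weeks, received the same stimuli plus emodin, a plant anthraquinone, at 50 μM. The series title concerns inhibition of this activation by emodin. The labels do not link arrays to individual animals, and p-values therefore cover only the spread among these samples. The samples are adherent bulk cultures, in which fewer cells of a type and less RNA per cell cannot be told apart.

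The activating receptors assemble with the common gamma chain, whose tyrosine-based activation motif (ITAM) is phosphorylated by Src family kinases and then recruits the kinase Syk. Fcgr2b carries an inhibitory motif in its own tail that recruits the lipid phosphatase SHIP-1, encoded by Inpp5d, and dampens signals of the activating receptors. Interferon gamma is known for raising activating Fc gamma receptors on macrophages, and the balance between activating receptors and Fcgr2b is known to set how strongly a macrophage answers immune complexes.

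Several properties of the arrays touch the values below. All control arrays lay on 1 slide with a scan of its own and both stimulated groups shared another, so slide, age and the control condition cannot be told apart, while LPS_IFNg_emodin against LPS_IFNg lies within 1 slide. The 75th percentile of the processed signal was 633 to 810 on control arrays, 637 to 795 on LPS_IFNg arrays and 370 to 466 on LPS_IFNg_emodin arrays. The signals of 4 arrays went against the labelled sex. By scanner file, control replicates 3 and 4 were labelled male but showed the female transcript Xist and no Y-linked Ddx3y. Replicate 3 of both stimulated groups, labelled female, showed the reverse. Of the 9 macrophage markers with a named probe, 8 were above background on all 12 arrays. Timd4, a marker of resident peritoneal macrophages, was above background on 4 control, 4 LPS_IFNg and 0 LPS_IFNg_emodin arrays. The mean log2 levels of Gata6 and Icam2, markers of the same resident cells, were -0.38 and 2.88 in control. They were -1.81 and 1.90 in LPS_IFNg and -2.94 and 0.57 in LPS_IFNg_emodin. From LPS_IFNg to LPS_IFNg_emodin, Adgre1 went from 6.2 to 5.6, Csf1r from 7.3 to 6.9 and Mertk from 4.4 to 2.7. Itgam went from 2.9 to 3.6, Lyz2 from 7.5 to 8.4 and Cd14 from 5.3 to 5.5. The part of these markers' cells in the members' changes was not tested. The series design text names neutrophils, and of 10 neutrophil markers with a probe, 9 were above background on at least 1 array and Ngp, a granule protein, on none.

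The family did not move as one block. With LPS and interferon gamma, Fcgr4 rose 4.01-fold and Fcgr1 rose 2.17-fold, while the inhibitory Fcgr2b fell by 0.60 on the log2 scale. With emodin added, Fcgr1 fell 6.82-fold, to below its control level, and Fcgr2b, Fcgr4 and Fcgr3 fell by 0.63, 0.53 and 0.41 on the log2 scale. Fcgr4 remained 2.77-fold above control in the presence of emodin. Fcer1g passed the test in none of the 3 comparisons, with changes of 0.16, -0.20 and -0.04 on the log2 scale.

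Counts of called members need the background of all genes, because most genes on these arrays changed. In LPS_IFNg against control, 69% of the 13168 genes passed the limma test (Benjamini-Hochberg adjusted p below 0.05), 33.8% up and 35.2% down, and of the 5 members 2 were up, 1 was down and 2 were not called. In LPS_IFNg_emodin against LPS_IFNg, 71.8% of genes were called, 35.1% up and 36.8% down, and of the members 0 were up, 4 were down and 1 was not called. In LPS_IFNg_emodin against control, 78.2% of genes were called, 39% up and 39.2% down, and of the members 1 was up, 3 were down and 1 was not called. The shares of members called, in either direction, lie near these backgrounds. Groups were free of overlap for 4, 3 and 4 of the 5 members in the 3 comparisons, beside 64.3%, 67.5% and 72.3% of all genes. The median change of the members was 0.16, -0.53 and -0.55 on the log2 scale in the 3 comparisons, where that of all genes was -0.04, -0.01 and 0.00. The comparisons share arrays, so their values are given side by side only.

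**Figure D1:**
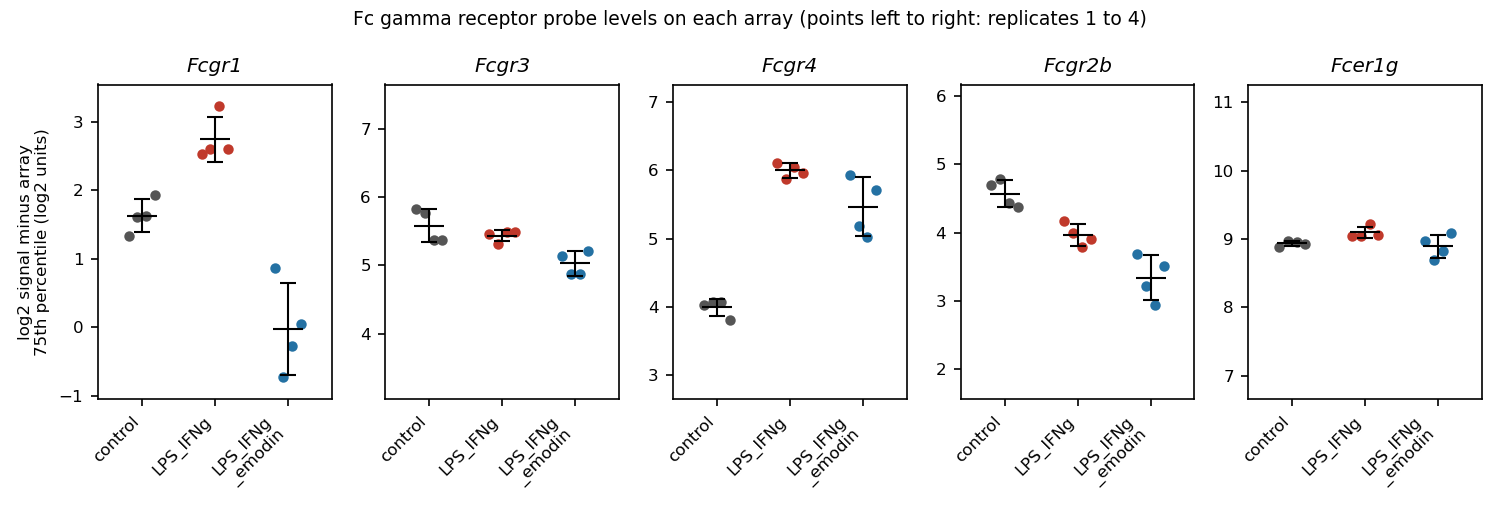
Level of each member on each of the 12 arrays, as log2 processed signal minus the array's 75th percentile (log2 units, vertical axes of equal span), by group. Points are arrays, replicates 1 to 4 from left to right, and bars show the group mean ± SD. Fcgr1 on LPS_IFNg_emodin arrays lies below all control arrays, and Fcgr4 on both stimulated groups lies above all control arrays.

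The regions upstream of the 3 activating receptor genes are shown because they hold short motifs of factors of the interferon and myeloid pathways, a property that did not enter the choice of members. Each sequence is the 250 bases upstream of a RefSeq transcript start in assembly GRCm38.p6, read 5′ to 3′ on the gene's strand, and capitals mark the motif matches. The motifs searched on both strands were TTCNNNGAA (the gamma-activated site), an interferon-stimulated response element core (GAAA, any 2 bases, GAAA) and GAGGAA (a PU.1 core), and no 2 of the printed matches overlap. The Fcgr1 window is chr3:96293970-96294219 on the minus strand, the Fcgr4 window is chr1:171018676-171018925 on the plus strand and the Fcgr3 window is chr1:171059395-171059644 on the minus strand.
Fcgr1: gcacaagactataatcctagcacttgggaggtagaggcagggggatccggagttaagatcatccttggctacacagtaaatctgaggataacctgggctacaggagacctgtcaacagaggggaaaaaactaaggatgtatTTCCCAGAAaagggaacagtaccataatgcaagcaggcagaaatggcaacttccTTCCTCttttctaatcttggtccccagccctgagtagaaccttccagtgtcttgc
Fcgr4: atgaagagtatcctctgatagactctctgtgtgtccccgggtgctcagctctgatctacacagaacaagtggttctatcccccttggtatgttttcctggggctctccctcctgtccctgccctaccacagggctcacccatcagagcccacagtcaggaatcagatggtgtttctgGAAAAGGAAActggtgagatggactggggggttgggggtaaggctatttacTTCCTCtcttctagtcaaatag
Fcgr3: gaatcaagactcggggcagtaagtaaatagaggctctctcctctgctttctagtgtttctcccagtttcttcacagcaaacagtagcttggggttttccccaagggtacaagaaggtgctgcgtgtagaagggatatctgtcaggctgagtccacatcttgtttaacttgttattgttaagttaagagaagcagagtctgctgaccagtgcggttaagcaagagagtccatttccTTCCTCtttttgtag
The Fcgr1 window held TTCCCAGAA, a match to TTCNNNGAA, from 109 to 101 bases upstream of the start, and TTCCTC, the reverse complement of GAGGAA, from 55 to 50 bases upstream. The Fcgr4 window held GAAAAGGAAA, a match to the response element core, from 73 to 64 bases upstream and TTCCTC from 22 to 17 bases upstream. The Fcgr3 window held TTCCTC from 15 to 10 bases upstream, and a neighbouring start listed for this gene held the same match. No match to these letters lay in the windows of Fcgr2b and Fcer1g. Of 32851 windows of the same length in the table, 7.02% held TTCNNNGAA, 2.98% held the response element core and 23.3% held GAGGAA. A match is a description of the letters and was not tested as a binding site.

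Fcgr1, the high-affinity receptor that can bind single IgG molecules, had the widest range of the 5 members. Its log2 levels were 1.34, 1.61, 1.63 and 1.94 on control arrays (replicates 1 to 4). They were 2.54, 2.61, 3.23 and 2.61 on LPS_IFNg arrays. On LPS_IFNg_emodin arrays they were 0.86, -0.73, -0.28 and 0.05. All LPS_IFNg arrays lay above all control arrays, and all LPS_IFNg_emodin arrays lay below both other groups. The group means were 1.63 ± 0.24, 2.75 ± 0.32 and -0.02 ± 0.67 (SD, n = 4 each) in control, LPS_IFNg and LPS_IFNg_emodin. The change from control to LPS_IFNg was 1.12 ± 0.29 (SE, adjusted p = 0.00445 in limma). The change from LPS_IFNg to LPS_IFNg_emodin was -2.77 ± 0.29 (adjusted p = 3.81e-06). Emodin-treated arrays differed from control by -1.66 ± 0.29 (adjusted p = 0.000205). The order of levels was thus LPS_IFNg, control, LPS_IFNg_emodin, with each neighbouring pair past the test.

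Fcgr4, an activating receptor of intermediate affinity expressed by myeloid cells, was higher than control in both stimulated groups and lower with emodin than without. Its log2 levels were 4.03, 4.07, 4.08 and 3.81 on control arrays. They were 6.10, 5.87, 6.06 and 5.97 on LPS_IFNg arrays. With emodin they were 5.94, 5.19, 5.03 and 5.71. Both stimulated groups lay above control without overlap, whereas the LPS_IFNg_emodin arrays overlapped the LPS_IFNg arrays through replicate 1. The rise from control to LPS_IFNg was 2.00 ± 0.17 (SE, adjusted p = 7.44e-07 in limma, n = 4 per group). The change with emodin was -0.53 ± 0.17 (adjusted p = 0.0155), and Fcgr4 was 1.47 ± 0.17 above control in that group (adjusted p = 7.2e-06). Without replicate 3 of both stimulated groups, whose sex-linked signals went against the label, the change with emodin was -0.37 (adjusted p = 0.0854). Without all 4 such arrays it was again -0.37 (adjusted p = 0.11).

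Fcgr3, a low-affinity activating receptor for immune complexes, changed least of the 3 activating receptors. Its log2 levels were 5.82, 5.76, 5.37 and 5.37 on control arrays. They were 5.45, 5.31, 5.48 and 5.50 on LPS_IFNg arrays. With emodin they were 5.14, 4.87, 4.88 and 5.21. The control arrays fell into a higher and a lower pair, the LPS_IFNg arrays overlapped the lower pair, and all LPS_IFNg_emodin arrays lay below all others. From control to LPS_IFNg the change was -0.14 ± 0.12 (SE, adjusted p = 0.311 in limma, n = 4 per group), which did not pass the test. With emodin Fcgr3 fell by 0.41 ± 0.12 relative to LPS_IFNg (adjusted p = 0.0101) and by 0.55 ± 0.12 relative to control (adjusted p = 0.00129). The lower control pair are the 2 control arrays labelled male. All 4 control arrays, this pair included, showed Xist and no Ddx3y. Without this pair the change of Fcgr3 in LPS_IFNg against control was -0.35 (adjusted p = 0.0196). Quantile scaling of all arrays gave -0.36 (adjusted p = 0.00724). Without replicate 3 of both stimulated groups, the change with emodin was -0.34 (adjusted p = 0.0633), and without all 4 arrays that went against the labelled sex it was -0.34 (adjusted p = 0.0209).

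Fcer1g, the gamma chain that the activating receptors need for surface expression and signalling, had the narrowest spread in control. Its log2 levels were 8.88, 8.98, 8.95 and 8.93 on control arrays. They were 9.05, 9.05, 9.23 and 9.06 on LPS_IFNg arrays. With emodin they were 8.98, 8.70, 8.82 and 9.08. The LPS_IFNg arrays lay above all control arrays by a small margin, while the LPS_IFNg_emodin arrays overlapped both other groups. The change was 0.16 ± 0.09 in LPS_IFNg against control (SE, adjusted p = 0.114 in limma, n = 4 per group). It was -0.20 ± 0.09 in LPS_IFNg_emodin against LPS_IFNg (adjusted p = 0.0519) and -0.04 ± 0.09 against control (adjusted p = 0.675). The value with emodin depended on the scaling between arrays: quantile scaling gave -0.63 against LPS_IFNg (adjusted p = 7.82e-05) and -0.66 against control (adjusted p = 4.12e-05).

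Fcgr2b, the inhibitory receptor of the family, fell at each step from control to LPS_IFNg to LPS_IFNg_emodin. Its log2 levels were 4.69, 4.79, 4.43 and 4.38 on control arrays. They were 4.17, 3.99, 3.79 and 3.91 on LPS_IFNg arrays. With emodin they were 3.69, 3.22, 2.94 and 3.51. The 3 groups did not overlap. Its probe was printed as 10 spots per array, and the signal of these spots had a coefficient of variation of 3.75% to 7.72%. On the log2 scale the SD between spots of an array was at most 0.11, where the SD between arrays of a group was 0.16 to 0.33. The change was -0.60 ± 0.16 in LPS_IFNg against control (SE, adjusted p = 0.00478 in limma, n = 4 per group). With emodin it fell by 0.63 ± 0.16 relative to LPS_IFNg (adjusted p = 0.00358) and by 1.23 ± 0.16 relative to control (adjusted p = 1.56e-05).

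**Figure D2:**
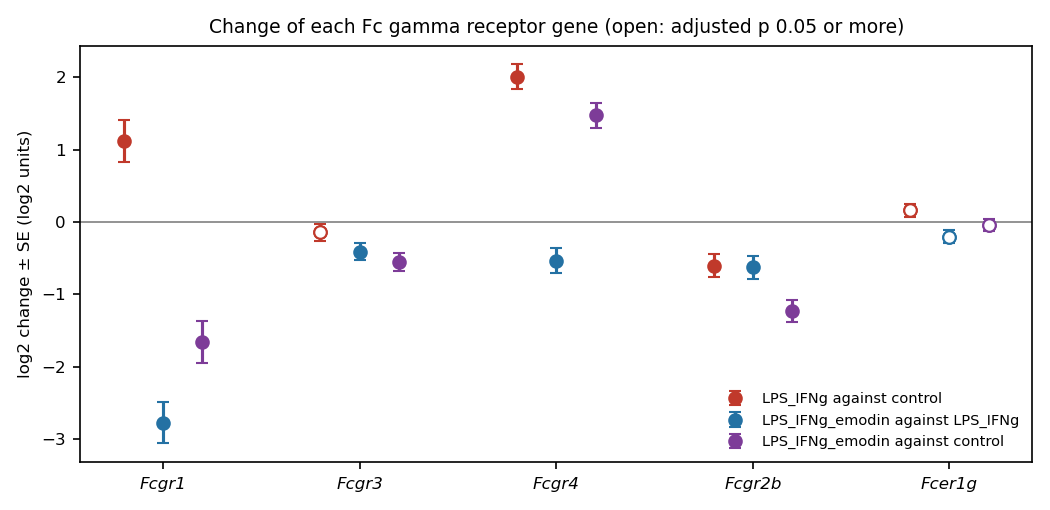
Log2 change of each member in the 3 comparisons (vertical axis, log2 units), with bars of 1 SE and n = 4 arrays per group. Filled points have an adjusted p under 0.05 and open points do not. Fcgr1 moves from 1.12 to -2.77 between LPS_IFNg against control and LPS_IFNg_emodin against LPS_IFNg, and all 3 points of Fcer1g are open.

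Scaling to the spike-ins, control RNAs added to each sample in known amounts, made every decrease with emodin larger. The spike-ins changed by -0.09 on the log2 scale between LPS_IFNg and LPS_IFNg_emodin arrays, while the 75th percentile changed by -0.76. With spike-in scaling the median gene changed by -0.67. On that scale Fcgr1 changed by -3.43, Fcgr2b by -1.29, Fcgr4 by -1.20, Fcgr3 by -1.07 and Fcer1g by -0.87, the last with an adjusted p of 0.000235 in limma. Changes on the percentile scale are therefore relative to the bulk of genes on the same array.

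B cells express Fcgr2b as their Fc gamma receptor, and B cell markers moved with emodin too. Of 6 B cell markers with a probe, Ms4a1, which encodes CD20, was well above background on all 8 control and LPS_IFNg arrays and on 0 LPS_IFNg_emodin arrays. The defining factor Pax5 was above background on 1 of 12 arrays and Cd79a on 1. The summed log2 level of the list was 0.16 to 1.30 on control arrays, -0.42 to 1.10 on LPS_IFNg arrays and -2.12 to -1.17 on LPS_IFNg_emodin arrays. The part of B cell RNA in the fall of Fcgr2b was not tested. Fibroblast and mesothelial markers were detected, 10 of 10, on at least 1 array. Their summed levels were 4.35 to 6.46, 6.38 to 7.33 and 3.67 to 5.37 in the same order. These markers did not move together from control to LPS_IFNg. Mean levels of Dcn (4.598 to 6.268), Col1a2 (3.231 to 5.143), Col1a1 and Wt1 rose. Those of Msln (-0.641 to -1.588), Krt19 (-0.55 to -2.837), Col3a1 (2.301 to 0.409), Upk3b, Lum and, slightly, Pdgfra fell. Upk3b was above background on 3 control and 0 LPS_IFNg arrays, and Lum on 4 and 0. The part of these cells was not tested either. Mast cells and basophils carry Fcer1g in the IgE receptor. Of their 8 markers, Tpsb2 and Hdc were above background on all 12 arrays and Ms4a2, the beta chain of that receptor, on 0, and the list's summed levels were -0.30 to 1.17, 0.39 to 1.77 and -0.31 to 1.41. Neutrophils express Fcgr3 and Fcgr4, and the neutrophil list had summed levels of 6.77 to 7.03, 6.82 to 6.97 and 6.96 to 7.63. S100a9 in this list was above background on 4, 0 and 3 arrays of control, LPS_IFNg and LPS_IFNg_emodin, and Ltf on 4, 0 and 2. Retnlg and Cxcr2 were each above background on 3, 0 and 0 arrays and Mpo on 2, 0 and 4. S100a8, Elane, Camp and Csf3r were above background on all 12 arrays. From control to LPS_IFNg, mean levels went from 3.41 to 4.01 for S100a8 and from -3.17 to -1.03 for Camp. They went from 4.31 to 3.46 for Elane and from 6.43 to 6.50 for Csf3r. The dendritic cell list had -1.28 to -0.70, 3.21 to 4.17 and 2.56 to 3.80. Of its 6 markers, Xcr1 was above background on 0 of 12 arrays and Ccr7, which activated cells also express, on all. In the same group order, Zbtb46 was above background on 3, 4 and 4 arrays and Flt3 on 1, 4 and 0. Clec9a was above background on 3, 4 and 1 arrays and Cd209a on 4, 0 and 0. The macrophage list had 9.36 to 9.38, 8.80 to 9.00 and 9.07 to 9.33. The part of any of these lists in the members' changes was not tested.

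The ratio of 2 members on the same array is free of any constant that scales the array. A ratio to Fcgr2b describes the activating to inhibitory balance of RNA signal in the bulk culture, and protein was not measured. Ratios of Fcgr1, Fcgr3, Fcgr4 and Fcer1g to Fcgr2b and of the 3 activating receptors to Fcer1g were compared in the 3 comparisons, 21 exact two-sided permutation tests in all. With 4 arrays against 4 the smallest possible p is 0.0286, which became 0.04 after Benjamini-Hochberg adjustment, and 15 tests reached it. A test reaches it only where the groups do not overlap. Of all single genes, 64.3%, 67.5% and 72.3% were free of overlap in the 3 comparisons. The share among ratios of other gene pairs is not given here, so the count of 15 is not a result about this family. Since probes differ in brightness, ratios are given relative to their control mean. Quantile scaling is no constant per array and can move a ratio, as several values below show. Deviations from the group mean on same-numbered arrays of the stimulated groups correlated weakly (r = 0.15 to 0.283). No label gives such pairs, and r for arrays of unlike number is not given here. Differences within these 4 pairs are therefore given as a description only, and sign flips of 4 pairs cannot give a p below 0.125.

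The Fcgr4 to Fcgr2b ratio changed most with stimulation and differed little between the stimulated groups. Relative to the control mean it was 2.45 to 2.84 (log2) on LPS_IFNg arrays and 2.55 to 2.82 on LPS_IFNg_emodin arrays, against -0.14 to 0.22 on control arrays. LPS_IFNg exceeded control by 2.61 ± 0.12 (SE), a 6.09-fold higher ratio (adjusted exact permutation p = 0.04). LPS_IFNg_emodin exceeded control by 2.70 ± 0.10, which is 6.50-fold (adjusted exact permutation p = 0.04). The difference between the stimulated groups was 0.09 ± 0.11 (exact permutation p = 0.371), with overlapping arrays, and 0.018 with quantile scaling. Within pairs it was above 0 in 3 of 4. Both genes thus had lower levels with emodin while their ratio differed by less than the spread between arrays.

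The Fcgr1 to Fcgr2b ratio rose with stimulation and fell when emodin was added. Relative to the control mean, LPS_IFNg arrays spanned 1.30 to 2.37, and with emodin the span was -1.01 to 0.11. The change was 1.72 ± 0.31 with stimulation and -2.14 ± 0.33 when emodin was added (SE, adjusted exact permutation p = 0.04 for both). Against control the ratio with emodin differed by -0.43 ± 0.31 (exact permutation p = 0.2), with overlapping arrays, and by -0.26 with quantile scaling. Fcgr1 and Fcgr4 both rose with stimulation, but with emodin the ratio of Fcgr1 to Fcgr2b overlapped control and that of Fcgr4 did not.

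The Fcgr3 to Fcgr2b and Fcer1g to Fcgr2b ratios were higher than control in both stimulated groups. The Fcgr3 to Fcgr2b ratio exceeded control by 0.46 ± 0.11 in LPS_IFNg and by 0.68 ± 0.11 in LPS_IFNg_emodin (SE, adjusted exact permutation p = 0.04 for both). Its change between the stimulated groups was 0.22 ± 0.14 (exact permutation p = 0.171), and within pairs it was 0.17, 0.33, 0.25 and 0.12, above 0 in 4 of 4. The Fcer1g to Fcgr2b ratio exceeded control by 0.76 ± 0.15 and 1.19 ± 0.16 (adjusted exact permutation p = 0.04 for both), and its change between the stimulated groups was 0.42 ± 0.17 (exact permutation p = 0.0571). Within pairs that change was 0.41, 0.42, 0.45 and 0.42, a mean of 0.42 ± 0.0076 (SE over pairs, exact sign-flip p = 0.125). With quantile scaling this ratio exceeded control by 0.74 in LPS_IFNg and 0.76 in LPS_IFNg_emodin, and its change between the stimulated groups was 0.022.

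Ratios to the common chain separated the 3 activating receptors. With stimulation, Fcgr4 to Fcer1g rose by 1.84 ± 0.08 and Fcgr1 to Fcer1g by 0.95 ± 0.16 (SE, adjusted exact permutation p = 0.04 for both). Fcgr3 to Fcer1g changed by -0.31 ± 0.14 (exact permutation p = 0.0571), with overlapping arrays. When emodin was added, Fcgr1 to Fcer1g fell by 2.57 ± 0.31 (adjusted exact permutation p = 0.04). Fcgr4 to Fcer1g changed by -0.33 ± 0.17 (exact permutation p = 0.114), below 0 in 4 of 4 pairs, and by -0.0035 with quantile scaling. Fcgr3 to Fcer1g fell by 0.21 ± 0.05 (adjusted exact permutation p = 0.04), but its sign turned to 0.12 under quantile scaling.

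**Figure D3:**
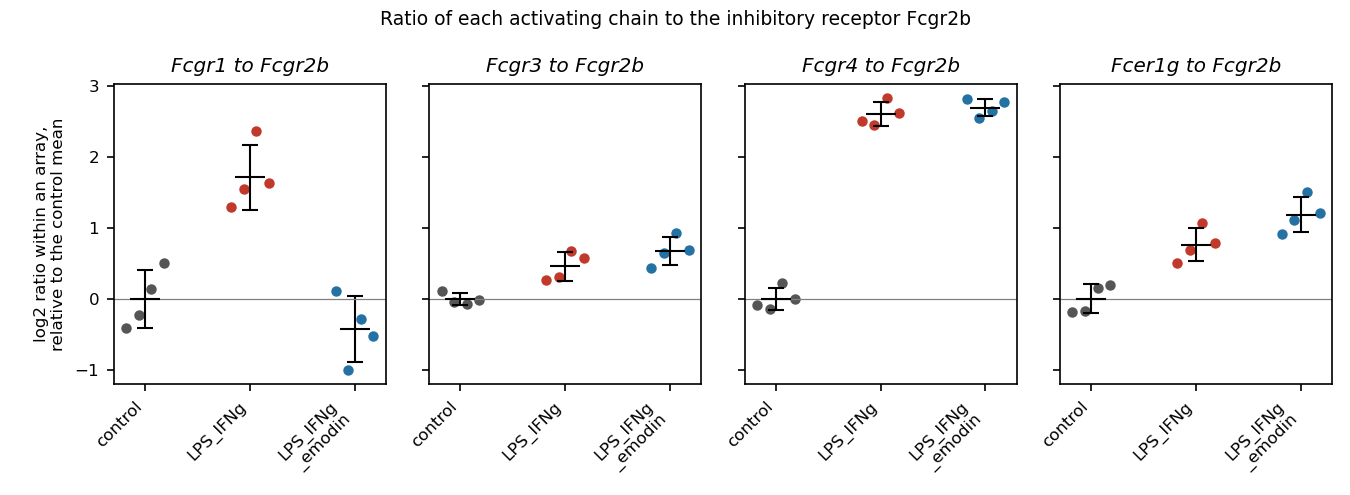
Log2 ratio of each activating chain to Fcgr2b on the same array, relative to the control mean (vertical axis, log2 units), by group. Points are arrays and bars show the mean ± SD (n = 4). The Fcgr4 ratio lies between 2.45 and 2.84 in both stimulated groups, while the Fcgr1 ratio returns to between -1.01 and 0.11 with emodin.

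Genes that act with the receptors were read from 6 further lists, described by counts to be read beside the 33.8% of all genes up and 35.2% down in LPS_IFNg against control and the 35.1% up and 36.8% down in LPS_IFNg_emodin against LPS_IFNg. Counts with emodin moved with the scaling and are given with spike-in scaling too, under which 1202 genes were up and 8523 down. Where counts with quantile scaling are given, they are to be read beside 4383 genes up and 5104 down of 13168 on that scale. The list of interferon gamma signalling and myeloid factors had 6 of 9 tested genes up and 3 down in LPS_IFNg against control, with a median change of 2.06. Socs1, a feedback inhibitor of Janus kinases, changed by 6.82 ± 0.11 (SE), Irf1 by 5.09 ± 0.09 and Irf8, a myeloid transcription factor, by 3.21 ± 0.08, with adjusted p-values of 5.35e-13, 1.02e-12 and 2.51e-11 in limma. When emodin was added, 2 rose and 5 fell, and with spike-in scaling 0 rose and 8 fell. Socs1 fell by 2.34 ± 0.11 and Jak2 fell by 0.85 ± 0.08 (adjusted p = 6.06e-09 and 1.71e-06 in limma). Spi1, which encodes PU.1, fell by 0.67 ± 0.06 with stimulation (adjusted p = 1.26e-06) and rose by 0.20 ± 0.06 with emodin (adjusted p = 0.012). The sign of the latter turned to -0.47 with spike-in scaling. Spi1 is named here because its motif was searched, a choice made after its values were seen.

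Of 26 tested kinases and adaptors below the ITAM 10 were up and 11 down in LPS_IFNg against control, and 8 were up and 13 down in LPS_IFNg_emodin against LPS_IFNg. The latter count was 5 up and 12 down with quantile scaling and 3 up and 20 down with spike-in scaling. The Src family kinase gene Src was well above background on all LPS_IFNg arrays and on no control array, a level at least 6.24-fold higher. Malt1, a protease of the CARD9 signalling complex, rose by 2.44 ± 0.08 (SE, adjusted p = 3.11e-10 in limma). When emodin was added, the scaffold Gab2 rose by 4.02 ± 0.15 (adjusted p = 1.25e-09). The phosphoinositide kinase gene Pik3cg, above background on 3 of 4 LPS_IFNg_emodin arrays, fell by 3.62 ± 0.18 (adjusted p = 1.12e-08) and the kinase gene Fyn by 2.34 ± 0.16 (adjusted p = 1.3e-07). Syk, the kinase that binds the phosphorylated gamma chain, rose by 0.60 ± 0.11 with stimulation (adjusted p = 0.000406) and fell by 0.45 ± 0.11 with emodin (adjusted p = 0.00266). Syk was singled out after its values were seen, for its place next to Fcer1g.

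Of 11 tested phosphatases and adaptors of the inhibitory arm 5 were up and 3 down with stimulation, and 3 were up and 3 down when emodin was added, or 0 up and 8 down with spike-in scaling. Ptpn6, which encodes the tyrosine phosphatase SHP-1, rose by 1.03 ± 0.07 with stimulation (SE, adjusted p = 5.2e-08 in limma) and fell by 2.04 ± 0.07 with emodin (adjusted p = 5.96e-10). Dok2, an adaptor that restrains kinase signalling, fell by 1.40 ± 0.17 and by a further 3.13 ± 0.17 (adjusted p = 1.78e-05 and 2.33e-08). Ubash3b, a phosphatase acting on Syk, rose by 0.92 ± 0.13 with stimulation (adjusted p = 6.24e-05). Dok1, a relative of Dok2, rose by 0.88 ± 0.09 with emodin (adjusted p = 2.54e-06), but by 0.22 with spike-in scaling (adjusted p = 0.142). Inpp5d, the SHIP-1 gene, fell by 0.61 ± 0.10 and by 0.74 ± 0.10 (adjusted p = 0.000142 and 2.73e-05), and was singled out after its values were seen, as the partner of Fcgr2b.

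Other receptors that couple to an ITAM chain were mostly lower after stimulation, with 2 of 12 tested genes up and 8 down and a median change of -1.17. Clec4e, the receptor Mincle, which uses Fcer1g as its signalling chain, rose by 4.01 ± 0.13 (SE, adjusted p = 2.39e-10 in limma). Trem2, a lipid receptor that signals through Tyrobp, fell by 2.95 ± 0.11 (adjusted p = 4.31e-10), and Sirpb1a, another receptor of that kind, fell by 3.48 ± 0.16 (adjusted p = 3.32e-09). When emodin was added 6 genes rose and 4 fell. Trem2 rose by 2.69 ± 0.11 (adjusted p = 2.08e-09) and Sirpb1a by 2.20 ± 0.16 (adjusted p = 2.26e-07), while Cd300lb fell by 2.53 ± 0.11 (adjusted p = 3.49e-09). The count with emodin was 5 up and 6 down with quantile scaling and 2 up and 6 down with spike-in scaling.

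Actin genes of the phagocytic cup, the structure that closes around an antibody-coated particle, changed by smaller amounts with stimulation. Of 23 tested genes 3 were up and 10 down, with a median of -0.10. Coro1a, an actin-binding coronin, fell by 0.97 ± 0.11 (SE), Arpc4, a subunit of the actin-nucleating complex, by 0.82 ± 0.08 and Wipf1, a partner of the Wiskott-Aldrich protein, by 0.73 ± 0.12 (adjusted p = 1.01e-05, 1.33e-06 and 0.00019 in limma). When emodin was added 7 rose and 11 fell, while quantile scaling gave 2 up and 14 down and spike-in scaling 0 up and 21 down. Dock2 and Dock1, exchange factors for Rac, fell by 4.03 ± 0.10 and 2.49 ± 0.12 (adjusted p = 8.82e-11 and 7.59e-09), and Coro1a fell by 2.08 ± 0.11 (adjusted p = 2e-08).

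**Figure D4:**
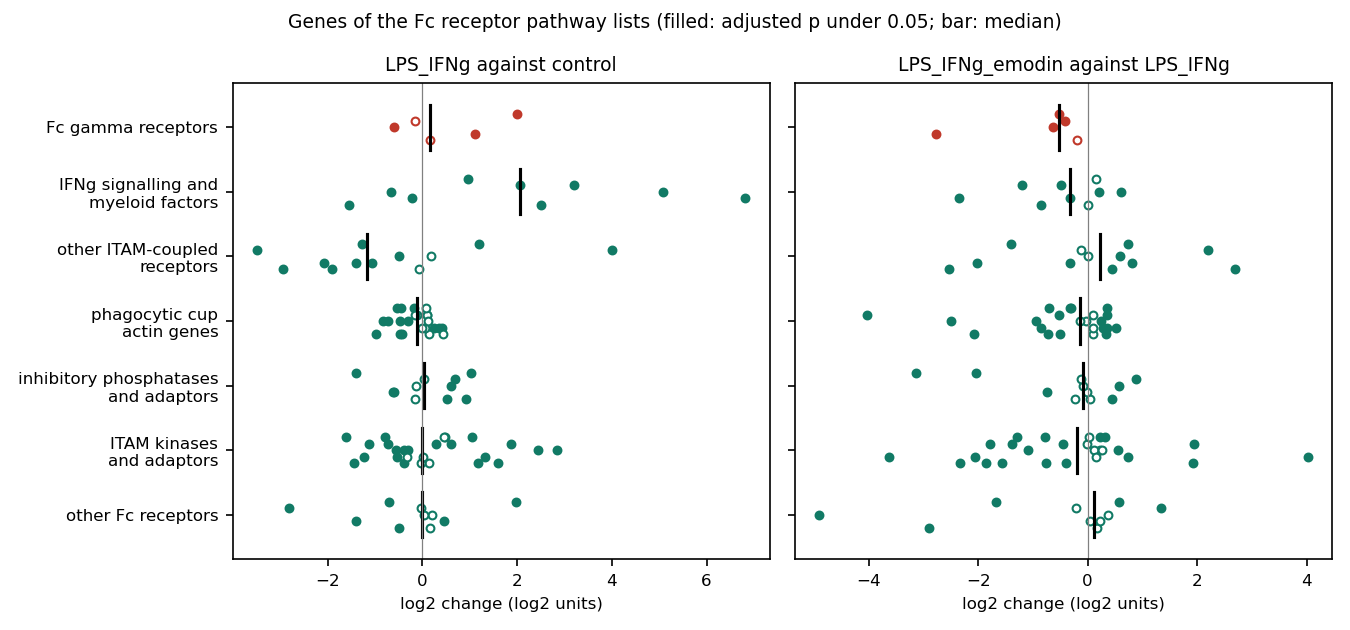
Log2 change (horizontal axes, log2 units) of each tested gene of 7 lists, in LPS_IFNg against control (left) and LPS_IFNg_emodin against LPS_IFNg (right). Points are genes, filled where the adjusted p is under 0.05, and bars are list medians. The interferon gamma list has the highest median with stimulation, 2.06, and Fcgr1 is the lowest member of the Fc gamma receptor row with emodin, at -2.77.

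Of 13 other immunoglobulin Fc receptors and Fc receptor-like genes, 10 were tested. They had 2 up and 4 down in LPS_IFNg against control and 2 up and 3 down in LPS_IFNg_emodin against LPS_IFNg. Trim21, a cytosolic antibody receptor, rose by 1.97 ± 0.12 with stimulation (SE, adjusted p = 2.43e-08 in limma) and fell by 1.68 ± 0.12 with emodin (adjusted p = 1.31e-07). Fcgrt, the neonatal receptor that recycles IgG, fell by 1.40 ± 0.18 with stimulation (adjusted p = 2.02e-05) and changed by 0.23 ± 0.18 with emodin (adjusted p = 0.264). Fcrl1, Fcmr and Fcrla are known from B cells. Fcrl1 exceeded background on 0 of 4 LPS_IFNg arrays and was at least 2.44-fold higher in control (adjusted p = 1.37e-06). Fcmr, the IgM receptor, exceeded background on 0 of 4 LPS_IFNg_emodin arrays and was at least 7.44-fold higher in LPS_IFNg (adjusted p = 8.83e-08). Fcrla was at least 2.3-fold higher in LPS_IFNg in the same way (adjusted p = 3.9e-05). Pigr, the polymeric immunoglobulin receptor, changed by -0.03 ± 0.10 with stimulation (adjusted p = 0.828) and rose by 1.33 ± 0.10 with emodin (adjusted p = 3.29e-07). Of the others, Fcrl5 changed by -0.70 and 0.57, Fcer2a by -0.50 and 0.17, Fcrlb by 0.45 and 0.05, and Fcrls by 0.03 and 0.38 in the 2 comparisons. Fcer2a was above background on 1 LPS_IFNg array. With spike-in scaling the list had 1 gene up and 6 down with emodin. On that scale Pigr changed by 0.67, and the signs of Fcrl5 (-0.09), Fcrlb (-0.61), Fcer2a (-0.49), Fcgrt (-0.44) and Fcrls (-0.29) turned.

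For each member the 3 tested genes with the highest Pearson r over the 12 arrays were taken as the most alike in pattern. The arrays fall into 3 groups that most genes separate, so these values describe group patterns. For Fcgr1 they were Ptbp3, Oas1c and Cenpe (r = 0.979, 0.978 and 0.977). For Fcgr4 they were Ppme1, Stxbp3 and Ramp3 (r = 0.991, 0.990 and 0.988). For Fcgr2b they were Dgcr6, Atpif1 and Gmnn (r = 0.987, 0.982 and 0.982), and for Fcgr3 Dcun1d5, Pin4 and Sft2d1 (r = 0.961, 0.956 and 0.952). Fcer1g had the lowest values, with Opa1, Spic and Scrt2 (r = 0.919, 0.889 and 0.867). Of the genes most like Fcgr1, Cenpe changed by 1.25 ± 0.16 with stimulation and -2.28 ± 0.16 with emodin (SE, adjusted p = 2.44e-05 and 1.46e-07 in limma).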

How the data were processed

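Total RNA (200 ng) was labelled with Cy3 and hybridised to one-colour Agilent arrays. Scanner files deposited by the authors give an intensity for each spot, and the submitters' processing notes name Feature Extraction 10.7.3.1. The authors' deposited table of log2 values matched quantile-normalised signal centred per probe (column medians -0.0314 to 0.0416). Its control columns 1, 3 and 4 matched scanner files of control replicates 4, 1 and 3, so it was used only as an alternative.

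After removal of 78 to 415 outlier-flagged spots from each array, replicate spots were averaged and each array's 75th percentile was subtracted from the log2 signal. A probe was kept if every array of some group measured it well above background (27375 of 55681). Accessions were named through a RefSeq table of GRCm38.p6, used for names only because the array is annotated on mm9, and upstream sequences are RefSeq's of GRCm38.p6. The brightest kept probe stood for a gene. Probe sequences were not used here, so hybridisation between related receptors was not analysed here.

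limma 3.58.1 in R 4.3.3 was fitted to all 12 arrays with 3 group means, two-sided, with Benjamini-Hochberg adjustment over 13168 genes and a threshold of 0.05. Ratios had exact permutation tests. On data simulated for LPS_IFNg_emodin against LPS_IFNg with 13168 genes, 51%, 86.2% and 97.6% of changes of 0.5, 1 and 2 log2 units were recovered. Members, lists and named genes (members, the 3 largest changes of each list, all detected other Fc receptors, the 3 most alike genes) were chosen with earlier results of these data known; some genes that the rule names are not reported here. Alternatives were other scalings, background correction, filters, probe choice, left-out arrays, the value table and replicate blocks. Deviations of same-numbered LPS_IFNg and LPS_IFNg_emodin arrays had r = 0.229, 0.283, 0.162 and 0.15. Same-numbered LPS_IFNg and control arrays had r = 0.141, -0.0692, -0.0158 and -0.137. Pairs by number thus rest on the data, not on a label, and r for arrays of unlike number is not given here. The number of arrays limits the precision.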

Additional observations from a re-analysis of the deposited data

Results flagged for a closer look

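Groups of 4 arrays were screened for 1 array far from the others, over the levels of 5 members and 7 ratios in 3 groups, 36 in all, and 4 exceeded Dixon's critical value. Chance flags about 1 in 20 groups, and the items share arrays and genes. Replicate 3 of LPS_IFNg stood apart in 3 of the 4 cases. For Fcgr1 it had a log2 level of 3.23 where the nearest array had 2.61 (gap over range 0.893). For Fcer1g it had 9.23 where the nearest had 9.06 (0.921), and for the Fcgr1 to Fcer1g ratio it was likewise the highest (0.866). This array is 1 of the 4 whose sex-linked signals went against the label. Without it, Fcgr1 rose by 0.95 in LPS_IFNg against control and fell by 2.61 in LPS_IFNg_emodin against LPS_IFNg. Control replicate 4 was the lowest for Fcgr4, at 3.81 where the nearest array had 4.03 (0.832).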

How the results depend on the processing

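The changes of Fcgr1 and Fcgr2b kept their direction and call under all alternatives run, as did Fcgr4 against control. Leaving out 1 array at a time gave 0.95 to 1.22 for Fcgr1 and 1.94 to 2.05 for Fcgr4 in LPS_IFNg against control, and -3.07 to -2.54 and -0.69 to -0.38 in LPS_IFNg_emodin against LPS_IFNg. Fcgr3 in LPS_IFNg against control became called with quantile scaling (-0.36), the percentile over probes detected on all arrays (-0.26), the value table (-0.36), without the control arrays labelled male (-0.35) and without the 4 arrays that went against the labelled sex (-0.37), and turned to 0.021 with normexp background correction. Fcer1g in LPS_IFNg against control turned to -0.027 with quantile scaling and -0.034 with the value table and became called with normexp (0.31). Fcer1g in LPS_IFNg_emodin against LPS_IFNg became called with quantile scaling (-0.63), the detected-probe percentile (-0.26), spike-ins (-0.87), normexp (-0.25), a filter requiring all 12 arrays (-0.20, adjusted p = 0.0478 in limma) and the value table (-0.63), and ranged from -0.27 to -0.14 with 1 array left out. Fcer1g in LPS_IFNg_emodin against control became called with quantile scaling (-0.66), the detected-probe percentile (-0.21) and the value table (-0.67), turned to 0.064 with normexp, and ranged from -0.10 to 0.026 with 1 array left out, the latter without LPS_IFNg_emodin replicate 2. Without replicate 3 of both stimulated groups, Fcgr3 (-0.34) and Fcgr4 (-0.37) lost the call with emodin and 2 members were called, and without the 4 arrays Fcgr4 (-0.37) lost it. The Fcgr3 to Fcer1g ratio with emodin turned to 0.12 with quantile scaling and with the value table. Ratios without overlap in that comparison numbered 3 to 5 with 1 array left out, 5 without LPS_IFNg_emodin replicate 1. With quantile scaling no ratio had an adjusted exact permutation p below 0.05, and the smallest was 0.05. In LPS_IFNg_emodin against control on that scale, Fcgr1 to Fcer1g had 0.0923 and Fcgr3 to Fcer1g had 0.3. Each of these ratios was weaker in 10 of 20 alternatives, and other ratios were weaker in some. The cause of these differences was not tested.

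Adding the replicate number as a block changed no call of a member, and Fcgr4 in LPS_IFNg_emodin against LPS_IFNg had an adjusted p of 0.0198 over 12 arrays and 0.0301 over the 8 compared, in limma. Without the filter on dim probes, 7843 genes were up and 4780 down in LPS_IFNg against control (median 0.22) and 8202 and 5329 in LPS_IFNg_emodin against control (median 0.27). With spike-ins, 1202 were up and 8523 down in LPS_IFNg_emodin against LPS_IFNg. Spike-ins differed between the slides and were not used against control. The normexp setting and the setting without the 4 arrays were chosen after seeing the data. Signal over background did not limit the members.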

Other observations

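Fcgr2b, Fcgr4, Fcgr3 and Fcer1g follow each other in this order on mouse chromosome 1, with 6 further tested genes between Fcgr3 and Fcer1g, while Fcgr1 lies on chromosome 3. The neighbours did not share one direction with the receptors. Sdhc, a subunit of succinate dehydrogenase, changed by -0.40 ± 0.08 (SE) in LPS_IFNg against control and by -0.30 ± 0.08 in LPS_IFNg_emodin against LPS_IFNg (adjusted p = 0.000685 and 0.00471 in limma, n = 4 per group). Cfap126, a cilium gene, changed by -0.85 ± 0.13 and 1.41 ± 0.13 (adjusted p = 7.92e-05 and 1.13e-06). Nr1i3, a xenobiotic nuclear receptor, exceeded background on 0 of 4 control arrays and was at least 5.98-fold higher in LPS_IFNg, and it rose by a further 2.04 ± 0.20 with emodin (adjusted p = 2.11e-06). Tomm40l changed by 0.02 ± 0.15 and -2.24 ± 0.15 (adjusted p = 0.906 and 8.71e-08). Pcp4l1 was well above background on no LPS_IFNg array and was at least 41.5-fold higher on the 3 control arrays that measured it and at least 6.23-fold higher with emodin. Apoa2, next to Fcer1g, changed by 0.00 ± 0.08 and -0.08 ± 0.08 (adjusted p = 0.977 and 0.423).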
